A study of Mus musculus with 6 samples.

Results

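The 8 genes described here encode enzymes that cross-link the cornified envelope or process filaggrin: the transglutaminase genes Tgm1, Tgm2, Tgm3 and Tgm5, the protease genes Casp14 and Asprv1, and the peptidylarginine deiminase genes Padi1 and Padi3. They were taken by symbol from a table of 17866 genes, and each symbol had 1 row. RNA came from the separated corneal epithelium of C57BL/6 mice at 6 months of age, with 3 libraries labelled wild type (WT) and 3 labelled Rela-/- (here KO). Rela codes for p65, a subunit of NF-κB, a transcription factor. In the study the gene was deleted with a floxed allele and Krt14-Cre, a recombinase driven by the keratin 14 promoter that acts in K14+ epithelia including the limbus, conjunctiva and skin, so the deletion was not confined to the cornea and was not a whole-body null. The controls were labelled only as wild type, and whether they carried the Cre or the floxed allele is not given in the sources used here. The labels count 1 to 3 within each genotype, and the methods describe 3 independent biological samples.

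Transglutaminases join glutamine to lysine side chains of proteins and depend on calcium. In the upper epidermis they weld proteins such as loricrin, involucrin and the small proline-rich proteins into an insoluble envelope beneath the cell membrane. Transglutaminase 1 is bound to the membrane, transglutaminase 3 is a cytosolic proenzyme activated by cleavage, transglutaminase 5 acts in the same layers, and transglutaminase 2 is the widely expressed tissue form. Filaggrin is made as the large precursor profilaggrin. Deiminases convert its arginines to citrullines and loosen it from keratin, while proteases, among them the retroviral-like protease encoded by Asprv1 and caspase-14, cut the precursor or the released units into small peptides and amino acids. Healthy corneal epithelium is stratified but does not cornify.

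Promoter sequences are shown for 4 of the genes because their mRNAs behaved differently: Tgm3 had the largest change, Tgm1 and Tgm5 rose moderately, and Asprv1 had the highest level with no difference that passed the test. Each window covers 250 bases before to 50 bases after a RefSeq start site on GRCm38.p6, written 5′ to 3′ on the strand of the gene, with motif matches in capitals. Of the 8 genes, 7 had at least 1 window in the RefSeq promoter table and Tgm1 had 2, of which the outer one is shown.
Tgm3 (chr2:130012090-130012389, plus strand): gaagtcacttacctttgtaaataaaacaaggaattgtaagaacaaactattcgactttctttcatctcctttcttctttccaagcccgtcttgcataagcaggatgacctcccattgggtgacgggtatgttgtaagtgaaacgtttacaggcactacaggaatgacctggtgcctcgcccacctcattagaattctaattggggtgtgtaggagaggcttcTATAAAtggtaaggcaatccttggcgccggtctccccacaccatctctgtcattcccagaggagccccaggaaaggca
Tgm1 (chr14:55713443-55713742, minus strand): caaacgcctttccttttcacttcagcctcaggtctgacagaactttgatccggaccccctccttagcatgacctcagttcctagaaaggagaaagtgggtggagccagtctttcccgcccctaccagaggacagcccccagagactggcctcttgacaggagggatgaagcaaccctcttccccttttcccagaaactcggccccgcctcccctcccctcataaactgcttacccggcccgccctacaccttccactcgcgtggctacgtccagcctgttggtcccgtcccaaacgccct
Tgm5 (chr2:121085792-121086091, minus strand): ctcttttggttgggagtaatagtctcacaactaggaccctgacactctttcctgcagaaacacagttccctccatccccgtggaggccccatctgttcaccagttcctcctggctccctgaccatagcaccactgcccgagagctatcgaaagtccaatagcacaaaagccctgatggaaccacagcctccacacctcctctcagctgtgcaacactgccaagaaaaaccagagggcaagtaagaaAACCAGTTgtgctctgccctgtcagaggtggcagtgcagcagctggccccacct
Asprv1 (chr6:86627924-86628223, plus strand): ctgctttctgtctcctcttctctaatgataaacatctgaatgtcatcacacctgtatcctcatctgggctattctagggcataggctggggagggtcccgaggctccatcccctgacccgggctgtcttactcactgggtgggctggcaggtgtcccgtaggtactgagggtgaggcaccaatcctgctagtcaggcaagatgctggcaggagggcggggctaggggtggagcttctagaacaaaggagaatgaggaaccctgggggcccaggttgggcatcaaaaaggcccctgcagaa
Searches on both strands used TATAAA (the TATA box), TGANTCA (AP-1), AACNNGTT (the grainyhead-like core) and an NF-κB consensus site. Among all 32851 promoter windows of this length, 13.6% held TATAAA, 7.81% TGANTCA, 4.2% AACNNGTT and 1.47% the NF-κB site. The capitals in the Tgm3 window mark a TATAAA that begins 28 bases upstream of the start site. Those in the Tgm5 window mark an AACNNGTT match that begins 4 bases upstream. The Tgm3 window lies inside the deposited gene, whose row begins at position 129987794, and no window at that position was searched. The windows of Tgm1, Casp14, Asprv1, Padi1 and Padi3 held no match to the 4 motifs. Binding sites of another form, or outside the windows, would be missed, so the lack of a match does not show that NF-κB sites are absent.

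Each library held between 20158404 and 20880347 estimated counts, where 3 counts, the detection floor, equalled 0.137 to 0.152 CPM (counts per 1e6 after TMM scaling). Floors cover counting error only. Rela had between 1844 and 1871 counts in WT and between 223 and 318 in KO, so that edgeR gave -2.60 on the log2 scale (SE 0.141, adjusted p = 2.74e-06). Of 6 markers of corneal epithelium, 5 were lower and 1, Krt14, was higher in KO, and all 6 had counts in every library. The lower call of Cdh1 was made in 8 of 14 alternative fits. Markers of other cells moved with genotype as well. All 4 tested stromal markers were higher, with a summed level of 0.687 to 2.7 CPM in WT and 12.6 to 22.4 CPM in KO, although Col1a1 was called in 9 of 13 alternative fits. Vim, with 7.98 to 14.4 CPM, was the largest part of the KO sum. Lum, a stromal marker too low to test, had 2, 4 and 1 counts in KO. Of 6 leukocyte markers 4 were higher and 1 lower, with a sum of 271 to 347 CPM in WT and 267 to 338 CPM in KO. The largest part of these sums was Itgam, the lower one, with 233 to 307 CPM in WT and 137 to 202 CPM in KO. The 4 higher ones, Ptprc, Lyz2, Cd74 and Csf1r, each rose at least 8.05-fold, so the near-equal sums do not mean that leukocyte mRNA was unchanged. The 5 markers of conjunctiva and goblet cells were all higher, with a sum of 1874 to 2902 CPM in WT and 52207 to 66919 CPM in KO, and Muc5ac, the goblet cell mucin, had 0 counts in each WT library. The single tested vessel marker, Pecam1, was higher, with sums of 0.0458 to 0.189 CPM for that list in WT and 0.752 to 0.897 CPM in KO. In bulk tissue, more cells of a type and more RNA per cell cannot be told apart, and the part of other cells in the results that follow was not tested except where a value is given.

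The genotypes were compared to ask which of these enzyme genes differed in expression without Rela. All 8 genes had enough counts for the test. Tgm1, Tgm3, Tgm5 and Casp14 were higher in KO, Tgm2 was lower, and Asprv1, Padi1 and Padi3 did not pass at an adjusted p of 0.05. Against this count of 4 higher and 1 lower, 31.8% of all 13305 tested genes were called higher and 30.2% lower. The same 5 genes also met the threshold of the study, a fold of at least 2 at an adjusted p no larger than 0.001, which 11.6% of tested genes met as higher and 8.24% as lower. The median log2 fold change of the 8 genes was 0.95, beside 0.01 over all tested genes. The groups did not overlap for these 5 genes and overlapped for the other 3, while among all tested genes 34.7% had every KO library above every WT library and 33.9% the reverse. The 5 calls were kept in each of 14 alternative fits, and Asprv1, Padi1 and Padi3 were called in none.

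**Figure D1:**
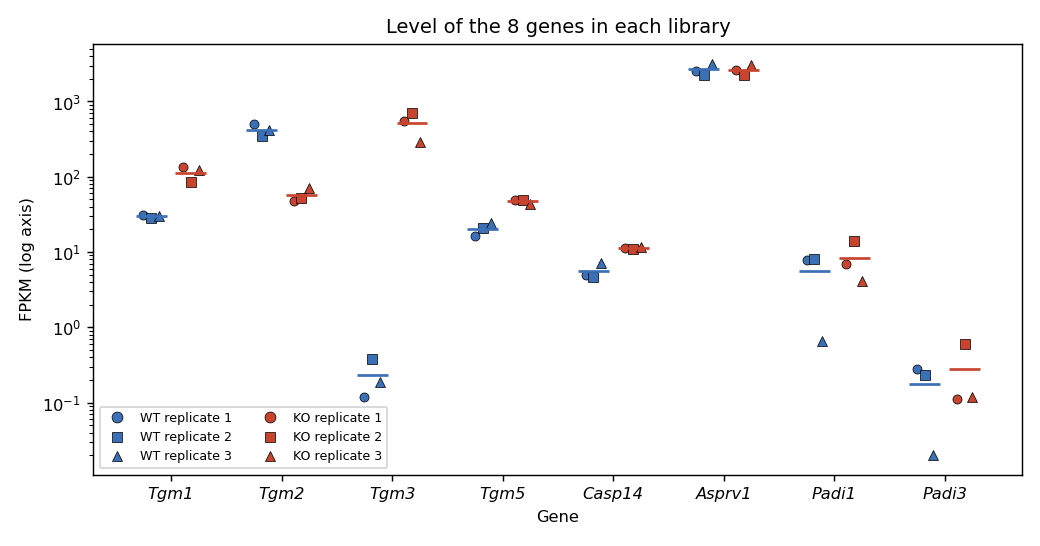
Level of each of the 8 genes in the 6 libraries, in FPKM on a log axis. Points are libraries (blue for WT, red for KO, shape for the replicate number) and horizontal lines are group means, with 3 libraries per group. Tgm3 moves from a mean of 0.23 to 514 FPKM and Tgm2 from 422 to 56.4 FPKM, whereas Asprv1 stays near 2661 and 2642 FPKM.

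Levels of different genes were set side by side in FPKM, the authors' values scaled to gene length and library total. The length used for a gene can differ between libraries. Tgm3 had more counts per FPKM in WT (replicate 2, 32.62 counts at 0.38 FPKM) than in KO (replicate 2, 38907 counts at 699 FPKM). Its change in FPKM thus also holds a difference in the length used. In WT the order of mean FPKM was Asprv1 (2661), Tgm2 (422), Tgm1 (29.7), Tgm5 (20.5), Casp14 and Padi1 (5.55 each), Tgm3 (0.23) and Padi3 (0.177). In KO it was Asprv1 (2642), Tgm3 (514), Tgm1 (113), Tgm2 (56.4), Tgm5 (47.8), Casp14 (11.4), Padi1 (8.38) and Padi3 (0.277). Tgm3 thus moved from the seventh to the second place, and Tgm2 from the second to the fourth. The ranges of neighbours in this order overlapped in WT for Casp14 and Padi1 and for Tgm3 and Padi3. In KO they overlapped for Tgm2 and Tgm5 and for Casp14 and Padi1. All other neighbours kept their order in 3 of 3 libraries of the group, with no overlap.

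Tgm3 (gene 21818, GRCm38 chromosome 2, positions 129987794 to 130050399, plus strand) showed the largest change among the 8. Estimated counts were 10.19, 32.62 and 16.20 in WT against 31162.92, 38907 and 16885.17 in KO. All 3 KO libraries lay far above the WT libraries, and within KO the third stood lowest. The mean rose from 0.917 ± 0.556 to 1457 ± 565 CPM (SD, n = 3 per group), or 10.63 on the log2 scale (SE 0.520, edgeR adjusted p = 1.78e-06). By the size of its rise Tgm3 stood at place 44 of 13305 tested genes. WT replicate 2, the WT library with the most Tgm3, also held the most Krt14, with 25395.35 counts beside 5207.03 and 6712.08, and without it the log2 fold change of Tgm3 was 11.23. Among WT libraries it was also highest for genes of cross-linked proteins, such as Lor, Sprr1a and Cnfn with 35, 1606 and 299 counts. The same held for Ivl, Sprr1b, Sprr3, Flg, Rptn and Krt10, but not for Krt1, Hrnr, Tchh, Evpl or Ppl. Conjunctival markers were also higher in KO, as given above. Within WT, however, Krt13, Krt4, Krt19 and Agr2 were highest in replicate 3, with 53417.96, 4700.60, 3129.28 and 36 counts. The part of conjunctival or limbal cells in the rise of Tgm3 was not tested. None of the 50-base words of the Tgm3 transcripts in GENCODE M21 occurred in a transcript of another gene, although its estimated counts were not all whole numbers.

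Tgm2 (gene 21817, chromosome 2, positions 158116405 to 158146392, minus strand) was the only one of the 8 that fell. WT libraries had 37428, 25559 and 31156 counts and KO libraries 3511, 3739 and 5257 counts. The lowest WT library lay well above the highest KO library. The mean went from 1460 ± 263 to 209 ± 46 CPM (SD, n = 3 per group), which left 14.3% and equalled -2.80 on the log2 scale (SE 0.200, edgeR adjusted p = 1.07e-05). Tgm2 is also known from endothelium, fibroblasts and macrophages, and the leukocyte markers did not move together. In WT Itgam (a leukocyte integrin) had 4998.64 to 6483.03 counts and Cd68 (a macrophage marker) 593 to 715, while Ptprc (the leukocyte antigen CD45) had 5 to 13. Itgam was lower in KO like Tgm2, with 2707.98 to 4060.33 counts, Cd68 did not pass, and Ptprc and the endothelial Pecam1 were higher. The part of these cells in the fall of Tgm2 was not tested. Of the 50-base words of Tgm2 transcripts, 18.7% also occurred in transcripts of Gm20412 or Rprd1b, although its estimated counts were whole numbers in all libraries.

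Tgm1 (gene 21816, chromosome 14, positions 55700009 to 55713921, minus strand) was counted 1773, 1661 and 1730 times in WT against 7736, 4741 and 7105 in KO. The WT libraries were within 1.06-fold of each other in CPM, while the KO libraries spanned 1.65-fold with replicate 2 lowest. The level was 4.09-fold higher in KO, from 80.1 ± 2.5 to 328 ± 80.3 CPM (SD, n = 3 per group), or 2.03 on the log2 scale (SE 0.177, edgeR adjusted p = 3.08e-05). Tgm5 (gene 74176, chromosome 2, positions 121046111 to 121085759, minus strand) was counted 861, 1099 and 1289 times in WT against 2618, 2552 and 2347 in KO. It rose 2.49-fold, from 50.5 ± 10.8 to 126 ± 8.04 CPM (SD, n = 3 per group), or 1.32 on the log2 scale (SE 0.152, edgeR adjusted p = 0.000133). Each KO library exceeded each WT library for both genes.

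The make-up of transglutaminase mRNA was then compared through the share of each gene in the summed FPKM of Tgm1 to Tgm7. Tgm2 held 91.4%, 87.3% and 88.4% of the sum in WT and 6.06%, 5.84% and 13.2% in KO. Tgm3 held at most 0.0964% in WT and 70.3%, 79% and 55.3% in KO. The leading transglutaminase mRNA was therefore Tgm2 in every WT library and Tgm3 in every KO library. The share of Tgm1 was 6.37% ± 0.845 in WT and 16.5% ± 6.76 in KO, and that of Tgm5 was 4.47% ± 1.31 in WT and 6.76% ± 1.39 in KO (SD, n = 3 per group). For each of the 4 shares the groups did not overlap, and a two-sided exact permutation test gave p = 0.1 before and after adjustment over the 4, the smallest value that 3 libraries against 3 allow. The summed FPKM was 553, 394 and 472 in WT and 780, 885 and 531 in KO, and these groups overlapped (exact permutation test, p = 0.2). Tgm4, Tgm6 and Tgm7 together added little, each with at most 0.096% of the sum in any library.

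**Figure D2:**
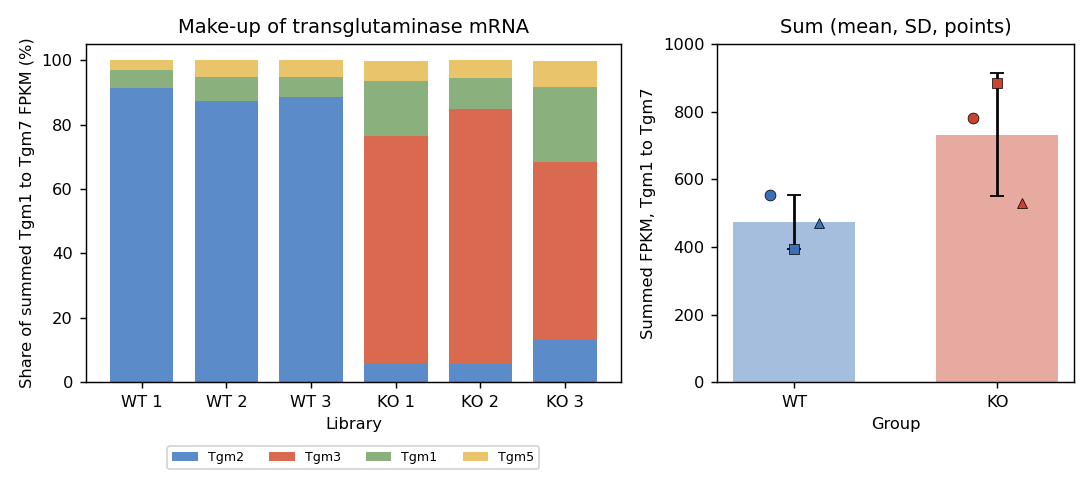
Left, share of Tgm1, Tgm2, Tgm3 and Tgm5 in the summed FPKM of Tgm1 to Tgm7 for each library, as stacked bars in percent. Right, the summed FPKM as the mean (bar), SD (error bar) and single libraries (points), with 3 libraries per group. Tgm2 fills 87.3% or more of each WT bar and Tgm3 55.3% or more of each KO bar, while the sums of the groups overlap.

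Asprv1 (gene 67855, chromosome 6, positions 86628174 to 86629710, plus strand) was abundant in both genotypes. Its counts were 80910, 70927 and 101647 in WT against 83485, 69583 and 97343 in KO. The groups overlapped throughout, and replicate 3 was highest and replicate 2 lowest in each. By mean FPKM this gene stood at place 16 of 17866 in WT and at place 21 in KO. On the log2 scale KO differed from WT by 0.09 (SE 0.181, edgeR adjusted p = 0.691), and the 95% interval ran from -0.33 to 0.50. A rise above 1.42-fold or a fall below 0.798 of the WT level thus lay outside the interval. The sign of the estimate turned under total-count scaling, in both FPKM fits, without WT replicate 2 and without KO replicate 3. None of its 50-base words was shared with another gene.

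Casp14 (gene 12365, chromosome 10, positions 78711995 to 78718347, minus strand) was counted 222, 215 and 341 times in WT against 552, 514 and 578 in KO. No KO library reached down to a WT library, and the KO libraries lay within 1.12-fold of each other in CPM. The level went from 12.1 ± 3.5 to 27.5 ± 1.56 CPM (SD, n = 3 per group), a rise of 2.27-fold or 1.18 on the log2 scale (SE 0.187, edgeR adjusted p = 0.000738). Casp14 stayed called at an adjusted p of 0.05 in each alternative, but it missed the threshold of the study without WT replicate 1 or 2 or without any 1 of the 3 KO libraries, where its adjusted p lay between 0.00221 and 0.00411. On log2(FPKM + 1) its change of 0.94 fell short of the 2-fold limit. In both genotypes the caspase-14 mRNA was a small fraction of the Asprv1 mRNA per length, with 5.55 ± 1.39 against 2661 ± 485 FPKM in WT and 11.4 ± 0.4 against 2642 ± 395 FPKM in KO (SD, n = 3 per group).

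Both deiminase genes varied widely among libraries of 1 genotype, and neither passed the test. Padi1 (gene 18599, chromosome 4, positions 140812981 to 140845778, minus strand) was counted 617.86, 638.92 and 51 times in WT against 552, 1069.84 and 330 in KO. WT replicate 3 stood far below the other WT libraries, by 12.3-fold in CPM from the highest, and KO replicate 2 was the highest of all. The difference was 0.70 on the log2 scale (SE 0.727, edgeR adjusted p = 0.43), and its 95% interval ran from -0.97 to 2.36. It was 0.19 without WT replicate 3 and 0.14 without KO replicate 2. Of the 50-base words of Padi1, 30.3% also occurred in other transcripts, nearly all in Gm13032, and its estimated counts were not all whole numbers, so this level is uncertain. Padi3 (gene 18601, chromosome 4, positions 140785369 to 140810648, minus strand), known from the hair follicle and upper epidermis, was low, counted 17.82, 14.59 and 1 times in WT against 7, 37.16 and 8 in KO. The same libraries were lowest and highest as for Padi1, which lies beside it on the chromosome. The 2 genes shared 14 of the 50-base words, and both had fractional estimated counts in WT replicates 1 and 2 and KO replicate 2. Reads may thus have been divided between them, so their patterns may not be independent, which was not tested. For Padi3 the difference was 0.72 on the log2 scale (SE 0.838, edgeR adjusted p = 0.478), and without KO replicate 2 it was -0.47. At this depth a change of Padi3 up to 6.24-fold lay within the 95% interval.

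The remaining genes of the 2 enzyme families were examined beside the 8. Of 5 other transglutaminase family genes, 3 had enough counts and 1, Tgm6, was higher in KO. Tgm6, which lies next to Tgm3 on chromosome 2, was counted 1, 0 and 0 times in WT against 40, 12 and 36 in KO, a mean at least 9.78-fold above the floor of 3 counts (adjusted p = 0.000456, edgeR). Tgm4 and Epb42, the gene of a family member without enzyme activity, did not pass (adjusted p of 0.743 and 0.948). F13a1, the macrophage transglutaminase gene, had 0 counts in each WT library and at most 3 in KO. Among 3 other deiminase genes, Padi4 was lower in KO, Padi2 did not pass (adjusted p = 0.586) and Padi6 was at most 2 counts in any library.

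Padi4 (gene 18602, chromosome 4, positions 140745508 to 140774239, minus strand), best known for modifying histones in neutrophils, was the leading deiminase mRNA of WT epithelium. Estimated counts of Padi4 were 3237.22, 3396.68 and 3040.76 in WT against 363.54, 652.69 and 457.11 in KO. Every WT library lay far above every KO library, with a difference of -2.61 on the log2 scale (SE 0.193, edgeR adjusted p = 1.32e-05). Padi4 held 90.8% ± 6.48 of the summed deiminase FPKM in WT and 51.3% ± 10.3 in KO, while Padi1 held 7.9% ± 5.86 and 43.9% ± 10.9 (SD, n = 3 per group). In KO replicates 1 and 2 Padi1 stood above Padi4, with 48.7% against 45.9% and 51.5% against 44.8%. In KO replicate 3 it stood below, with 31.3% against 63.1%. The level of Padi1 is uncertain, as given above. The sum itself went from 66.3 ± 8.1 to 18.3 ± 7.72 FPKM (SD, n = 3 per group). In WT, Padi4 stood at 150 ± 7.2 CPM (SD, n = 3). The list of neutrophil markers summed to between 3.16 and 10.4 CPM in WT, and Elane had 0 counts in each WT library. Such levels of different genes do not measure how many neutrophils were present. Ly6g, the neutrophil antigen gene, was lower in KO like Padi4, from 48.64 to 199.65 counts in WT to 14.91 to 52.19 in KO, with overlapping groups and a call in 11 of 14 alternative fits, while Csf3r was higher, and their part in the result was not tested. None of the 50-base words of Padi4 was shared, although its estimated counts were not whole.

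Of 12 tested genes for further filaggrin proteases and breakdown enzymes, 5 were higher and 2 lower in KO. Blmh, the bleomycin hydrolase that trims citrullinated filaggrin peptides to amino acids, was counted 1475, 1599 and 1366 times in WT against 9412, 8425 and 6767 in KO, or 2.58 on the log2 scale (SE 0.144, edgeR adjusted p = 3.03e-06). The desquamation protease gene Klk7 had at most 2 counts in any WT library and 1605, 804 and 1688 in KO, a mean at least 455-fold above the floor of 3 counts. Klk5 was at 0 counts in WT and at least 17-fold above the floor in the KO mean. Pcsk6, a proprotein convertase, and Ctsd, a lysosomal protease, were higher as well, with log2 fold changes of 1.40 and 0.98. Capn1, the gene of calpain 1, which also cuts filaggrin, was lower by -1.32 on the log2 scale (SE 0.121, edgeR adjusted p = 3.89e-05), and St14, the gene of matriptase, was lower with -0.54. Furin and Prss8, whose products are linked to cutting profilaggrin, did not pass (adjusted p of 0.163 and 0.739), nor did Ctsh, Ctsl and Hal, the last of which encodes histidine ammonia-lyase, an enzyme that is not a protease. Among 4 inhibitors of these proteases, Spink5 rose by 2.71 and Cst6 by 1.91 on the log2 scale, Spint2 was lower with -0.73, and Spint1 did not pass.

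**Figure D3:**
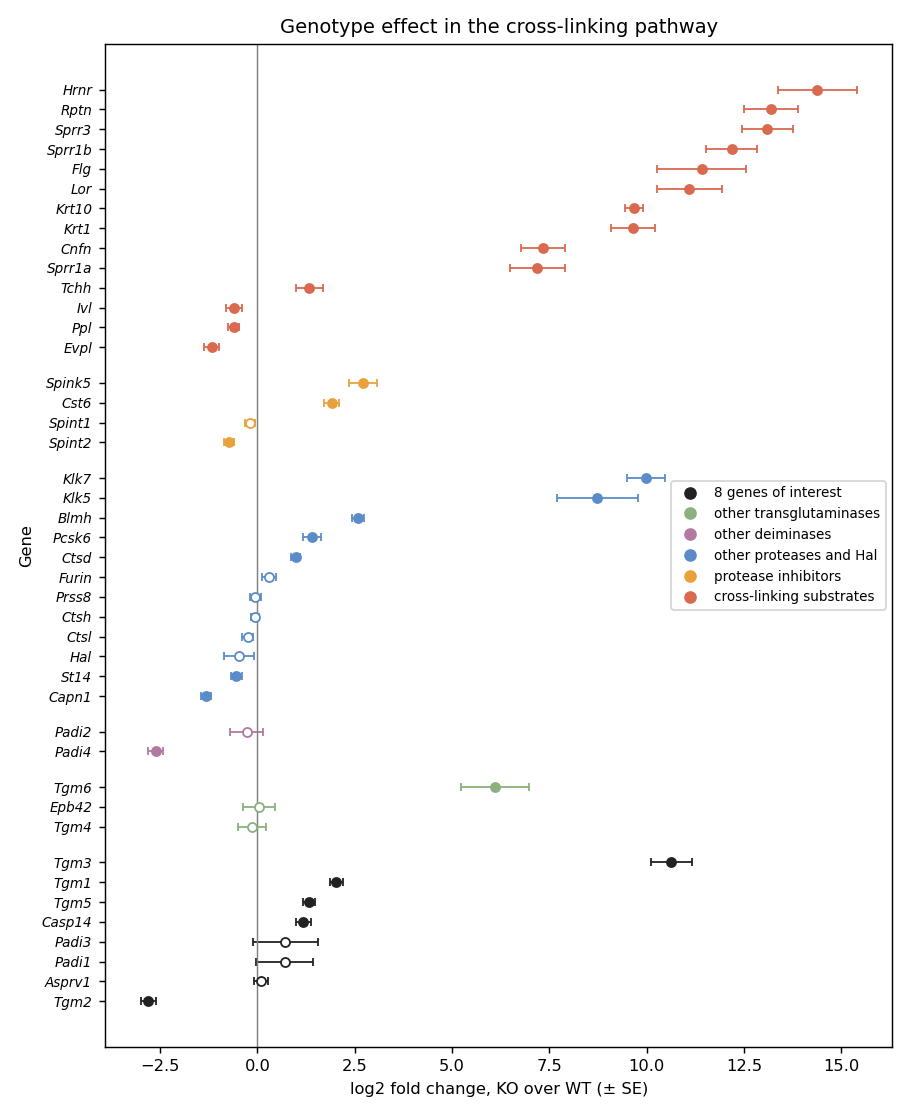
log2 fold change of KO over WT with its SE (edgeR, 3 libraries per group) for the 8 genes, other members of their families, other proteases and breakdown enzymes, inhibitors, and cross-linking substrates. Filled points passed an adjusted p of 0.05 and open points did not, and the values of Hrnr, Klk5, Klk7 and Tgm6, which had at most 3 counts in each WT library, depend on the small count that edgeR adds. The values of Rptn, Sprr3 and Flg, which had few counts in WT, also moved between fits. Tgm3 at 10.63 lies in the range of the substrates Krt10 and Lor, while Casp14, Tgm1 and Tgm5 lie between 1.18 and 2.03 and Tgm2 at -2.80.

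Proteins that the enzymes act on were followed in a list of 15 genes, 14 of them tested. In KO 11 were higher and 3 were lower. The lower ones were Evpl, Ppl and Ivl, which encode envoplakin, periplakin and involucrin, proteins of the early envelope scaffold, with log2 fold changes of -1.17, -0.61 and -0.60. Ivl lost its call in 4 of 14 alternative fits. The largest rises were those of Hrnr (hornerin), whose KO mean was at least 3047-fold above the floor of 3 counts, Rptn (repetin), with 13.19 on the log2 scale, and Sprr3, a small proline-rich protein gene, with 13.10. WT counts were low for Rptn (2, 14 and 5) and Sprr3 (0, 22 and 11). Over the alternative fits their log2 fold changes ran from 9.23 to 14.17 and from 11.47 to 14.08. Lor (loricrin) was counted 5, 35 and 9 times in WT against 60349, 17282 and 21709 in KO, or 11.09 on the log2 scale (SE 0.831, edgeR adjusted p = 1.4e-05). Flg (filaggrin) was counted 6, 12 and 2 times in WT against 38492, 5709 and 6826 in KO, or 11.41 on the log2 scale (SE 1.14, edgeR adjusted p = 6.25e-05, from 5.33 to 12.14 over the alternative fits). All KO libraries exceeded all WT libraries for both, but KO replicate 1 held several times as much Flg as the other KO libraries. The study drew attention to epidermal genes on these same libraries, so the direction of this list is not independent evidence.

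The KO libraries differed in how much substrate and enzyme mRNA they held. Relative to the mean of the 3 KO libraries in CPM, Casp14 stood at 1.02, 0.937 and 1.05, Asprv1 at 1.01, 0.833 and 1.16 and Tgm5 at 1.05, 1.02 and 0.929. Tgm3 stood at 1.08, 1.34 and 0.577, highest in replicate 2, and Tgm1 at 1.19, 0.725 and 1.08, lowest in replicate 2. The span from the lowest to the highest KO library ran from 1.12-fold for Casp14 to 5.23-fold for Padi3 among the 8 enzyme genes, and from 1.08-fold for Tchh to 6.81-fold for Flg among the 14 tested substrates, so that the ranges of the spans overlapped. Flg stood at 2.27, 0.334 and 0.396 and Lor at 1.83, 0.52 and 0.648, whereas Krt10 stood at 1.08, 0.905 and 1.02 and Sprr1a, highest in replicate 3, at 1.07, 0.703 and 1.23. KO replicate 1 was the highest library for 10 of the 14 substrates and for 2 of the 8 enzyme genes, Tgm1 and Tgm5, with no test of that difference. With 3 KO libraries no relation between enzymes and substrates could be tested.

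**Figure D4:**
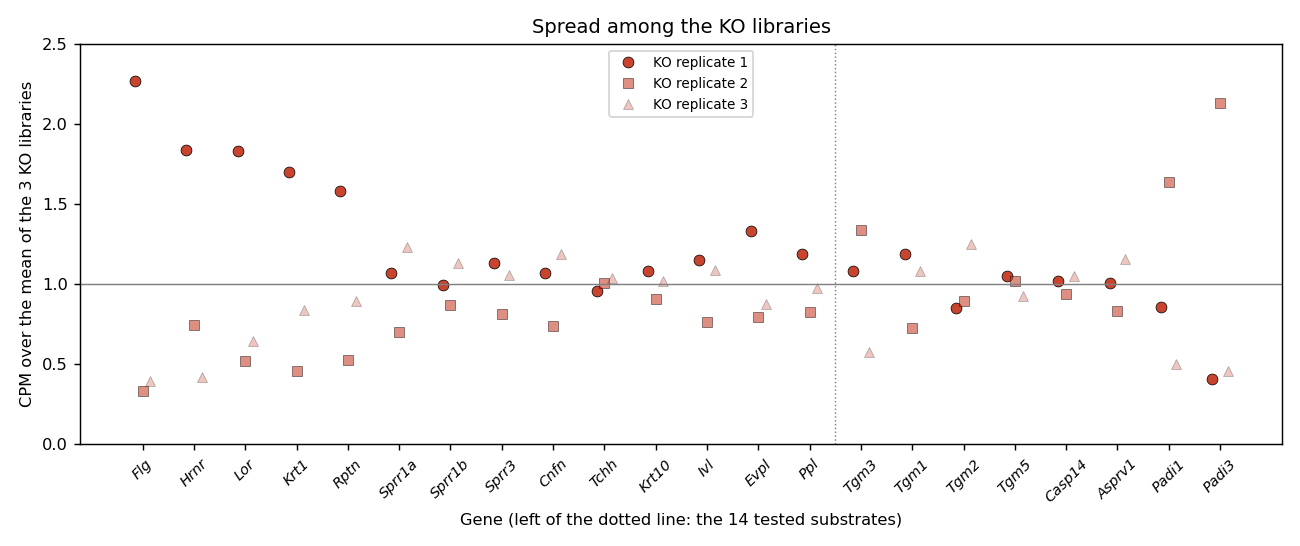
CPM of each gene in each KO library divided by the mean of the 3 KO libraries, on a linear axis, with shape and shade for the replicate number. The 14 tested substrates are left of the dotted line and the 8 enzyme genes right of it. Spans run from 1.08-fold to 6.81-fold at the left and from 1.12-fold to 5.23-fold at the right.

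The genes with the most similar pattern over the 6 libraries were sought by the root mean square distance between centred log2(CPM + 0.5) profiles, among 11385 genes with a mean count of at least 50. For Tgm2 the nearest genes were Hephl1 (distance 0.06), Nrg2 (0.11) and Nyap1 (0.12). Those for Tgm1 were Eepd1 (0.05), Otub2 (0.11) and Gm39972 (0.12), and those for Tgm5 were Il1rl2 (0.08), Tle6 (0.10) and Eef1e1 (0.11). Casp14 was nearest to Pir (0.10), Cysrt1 (0.10) and Ppargc1b (0.11). Asprv1 was nearest to Anxa9 (0.04), Hopx (0.06) and Slc25a35 (0.08). For Tgm3 the nearest were Serpinb3a (0.33), Serpinb3b (0.40) and Them5 (0.42). Padi1 was nearest to Hist1h2ai (0.32), which had 199.65, 281.02 and 5.23 counts in WT and so shared the low value of WT replicate 3, and the next genes were at 0.84. Padi3 was nearest to Cyp20a1 (0.32), Tspyl4 (0.35) and Pms2 (0.39). The 0.5 CPM added before the log shrinks differences of genes with low counts, so distances that involve such genes depend on it. Examples are Hephl1, with 19, 20 and 35 counts in KO, Eepd1, with 19, 15 and 19 in WT, and Padi3 itself. These distances describe 6 libraries from 2 groups and say nothing of shared control.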

How the data were processed

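The files hold RNA-seq of 6 libraries. The methods of the study give rRNA depletion and single-end 50-base reads from a BGI sequencer, but an Illumina kit is named in the labels. SOAPnuke served the authors for read filtering, Bowtie2 2.2.5 for alignment and RSEM 1.2.12 for quantification (versions also in the submitters' processing notes). Those notes name mm9, but the deposited gene coordinates are those of GRCm38. The deposited expected counts of RSEM are not normalized. The authors' FPKM values scale them to gene length and depth. The deposited TPM values, used only to recompute shares, have 1 fixed sum in all libraries. Columns with the authors' own DESeq2 comparison were not used. Of the deposited strands, 2574 marked plus are minus in GENCODE M21, including Tgm2 and Tgm5, so strands were taken from GENCODE.

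Groups came from the titles. After rounding, edgeR 4.0.16 under R 4.3.3 tested the estimated counts by quasi-likelihood with genotype as the only term (filterByExpr, TMM), adjusted by Benjamini-Hochberg over 13305 genes. SE is the absolute log2 fold change over the square root of F, and 95% intervals use the moderated degrees of freedom. CPM values are TMM-scaled. Where no WT library exceeded 3 counts, the fold is a bound set against 3 counts per library. Shares were compared by exact permutation (scipy 1.17.1). Other fits used RLE factors, DESeq2 1.42.0, total counts, no filter, a mean count of at least 50, limma 3.58.1 on log2(FPKM + 1) and log2(FPKM + 0.1), the replicate number as a block, and leaving out each library. Sequences came from RefSeq, GRCm38.p6.

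The 8 genes, the gene lists and the motifs were chosen with earlier results of these data known. Pathway genes were named where they were among the 3 largest called rises or falls of their group, a substrate of the enzymes, or not past the test in a group that otherwise was. Other genes with values given were chosen after their values were seen. Ctsv, Cdh5 and Mpo of the lists were not analysed here. No source used here says if strand entered the counting, and reads of overlapping genes may be mixed. The edgeR p-values set the difference between genotypes against the spread among these libraries. Those of the permutation tests count how many relabellings of the libraries gave a difference as large.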

Additional observations from a re-analysis of the deposited data

How the results depend on the processing

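The 5 calls among the 8 genes, 4 higher and 1 lower in KO, were made in each of the 14 alternative fits, and the other 3 genes were called in none. The range of the log2 fold change over these fits was 1.87 to 2.22 for Tgm1, -3.00 to -2.67 for Tgm2, 1.17 to 1.49 for Tgm5 and 0.94 to 1.46 for Casp14. For Tgm3 it was 8.63 to 11.23, and the lowest value came from log2(FPKM + 1), where the added 1 exceeds each WT value. Signs turned for genes that did not pass. Asprv1 was -0.01 with total counts and in both FPKM fits, -0.02 without WT replicate 2 and -0.03 without KO replicate 3, within a range up to 0.27 without WT replicate 3. Padi3 was -0.47 without KO replicate 2, within a range up to 1.21 without WT replicate 1. Total counts shifted the median of all tested genes by -0.09. Padi3 was not among the genes with a mean count of at least 50. Over all genes, 1543 met the threshold of the study as higher in KO, and 987 did with log2(FPKM + 1), which shrinks changes of low genes. Leaving out 1 library in turn gave 1045 to 1418 higher genes and 787 to 1007 lower genes at that threshold, and 3 to 4 higher genes among the 8. At an adjusted p of 0.05 it gave 3870 to 4254 higher and 3412 to 3936 lower genes, and 19 to 20 higher and 6 to 7 lower genes of the pathway list. The difference in share between KO and WT lay between -83.1 and -79.4 percentage points for Tgm2, 62.7 and 74.6 for Tgm3, 6.95 and 13.7 for Tgm1, and 1.52 and 2.87 for Tgm5.

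The replicate numbers come from the titles, which count 1 to 3 in each genotype and state no pairing. Same-numbered libraries had correlations of their deviations from the group means between -0.0217 and 0.061, and other pairs between -0.167 and 0.109. These values gave no sign of pairing, but with 3 libraries per group they cannot exclude it. With the replicate number as a block, 4149 genes were called higher and 3934 lower at an adjusted p of 0.05, and the same 5 of the 8 genes were called. Low counts limit Padi3, Tgm6 and the WT level of Tgm3.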

Other observations

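Hopx and Anxa9, which lay near Asprv1 in pattern, had the same order of libraries. Hopx was counted 10170, 9350.23 and 12821.52 times in WT against 9830, 9200 and 12969.04 in KO. Anxa9 was counted 2733.68, 2350.98 and 3386.49 times in WT against 2983.28, 2408.09 and 3304.32 in KO. For all 3 genes replicate 3 was highest and replicate 2 lowest in each genotype.

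Serpinb3a, the gene nearest to Tgm3, was counted 151, 344.29 and 339.87 times in WT against 264749.07, 242702.19 and 165592.57 in KO, with estimated counts that were not whole. KO replicate 3 was the lowest KO library for both genes.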
